A study of Mus musculus with 10 samples.

Results

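Regulatory T cells (Tregs) use parts of the program of naive T cells, and 10 genes of that program are described here: the transcription factor genes Lef1, Tcf7, Bach2, Satb1, Foxp1, Foxo1 and Id3, the cytokine receptor genes Il7r and Il6ra, and Dapl1. They were chosen by gene symbol, through the Ensembl identifiers of the count table, and all 10 had a row among 21556. The cells had been sorted by red fluorescence from mice of 10 weeks that carried a lymphangiogenic melanoma, and RNA was sequenced from cells of the tumor and of LN, whose kind the labels do not name. All mice carried the floxed MHC class II allele. Control mice had MHCIIfl/fl without Prox1 Cre (3 libraries from LN and 3 from tumor), and deleted mice, MHCIIdeltaProx-1, had Prox1 Cre (2 libraries from LN and 2 from tumor). Prox1 drives Cre in lymphatic endothelial cells, so the allele is removed there and not in the sorted Tregs, and the deletion cannot be checked in these libraries. Nothing in the labels says that the libraries of a group came from separate mice, so p-values measure the spread between these libraries, which may be technical.

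In naive T cells, TCF1 (from Tcf7) and LEF1 bind DNA through HMG boxes and hold cells in a resting, self-renewing state. FOXO1 enters the nucleus when antigen receptor and PI3K signaling are low and drives genes of survival and of homing to lymph nodes, among them Il7r. FOXP1, BACH2 and SATB1 restrain effector genes or organise chromatin, and ID3 blocks E protein transcription factors. The receptors for IL-7 and IL-6 are high on resting T cells. Tregs of lymph nodes are a mixture in which central cells keep this program, while effector Tregs of tissues carry less of it and more of factors such as BLIMP1 and ID2.

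The total count per library was 28539329 to 35736175, and counts of the 10 genes ran from 3 to 23232, so depth limited only Dapl1 in tumor. A count of 0 would allow up to 0.0839 to 0.105 CPM (from the raw library totals), an allowance for counting error only. All other CPM are TMM-scaled, so relative to all RNA of a library. The Treg markers Foxp3 and Cd4 had group means of 346 to 738 and 645 to 1340 CPM, lowest in tumor of deleted mice. A set of 23 genes shared by T cells (pan-T genes) summed to 16000 to 17700 CPM in LN of both genotypes and in tumor of control mice, but to 6990 and 8220 in tumor of deleted mice. Of these genes, Ptprcap was at 0 in every library. In the same tumor libraries 14 melanoma genes summed to 3740 to 7390 CPM in control and to 15000 and 18600 in deleted mice, against 9.38 to 27.4 in LN. Sox10 was the melanoma gene at 0 in LN, in both libraries of deleted mice. Levels in CPM therefore describe all RNA of a library, and in such bulk samples fewer T cells and less RNA per T cell cannot be told apart. For that reason each gene is also given per 10000 pan-T counts. Libraries 1 and 2 of the deleted tumors stood further apart than any other pair of 1 group, with a chi-square of 144 per gene against 26.1 to 76.2, so calls that turn on 1 of them are also given without it.

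Expressed per kilobase of exon (RPKM, from the scaled CPM), Tcf7 was the most abundant of the 10 in LN of control mice, with 205 ± 13.2 RPKM (SD, n = 3). Id3 followed with 178 ± 9.38 and Lef1 with 52.9 ± 2.69. Dapl1, Foxp1, Il7r and Il6ra formed a group at 21.2 ± 5.8, 20.1 ± 1.33, 19.0 ± 0.712 and 18.7 ± 1.59, neighbours that did not differ beyond their spread. Foxo1 had 13.4 ± 1.62, Satb1 7.85 ± 1.92 and Bach2 3.86 ± 0.678. In tumor of control mice the order changed. Il7r led with 44.3 ± 2.65 RPKM, ahead of Tcf7 with 35.5 ± 5.23, Lef1 with 16.9 ± 0.677 and Id3 with 12.7 ± 0.737. Foxo1 (9.29 ± 2.19), Foxp1 (7.05 ± 0.709) and Satb1 (6.13 ± 2.33) did not differ beyond their spread there, and neither did Bach2 (0.935 ± 0.572) and Dapl1 (0.772 ± 0.52) at the bottom, below Il6ra with 3.55 ± 0.688.

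**Figure D1:**
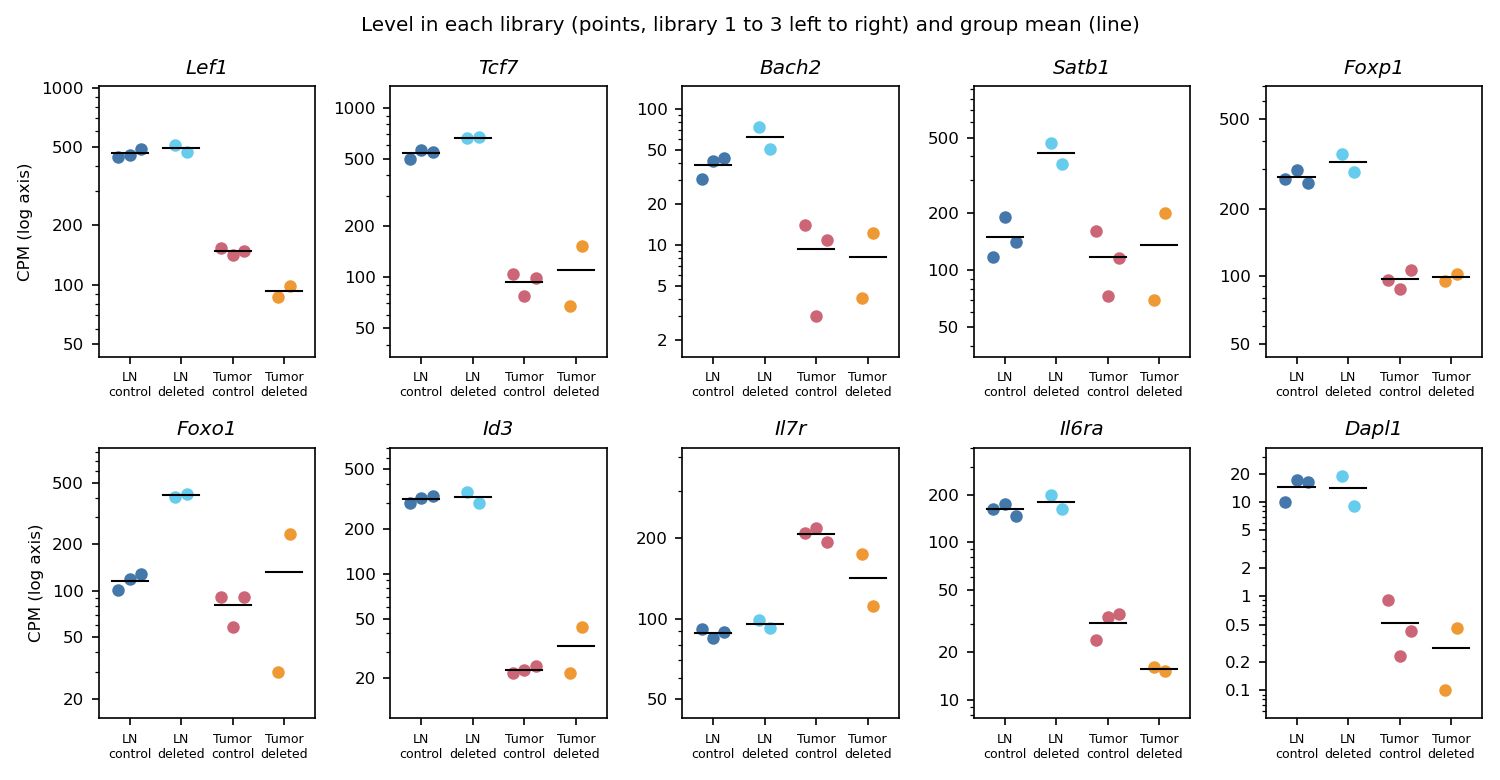
Level of each gene in CPM (log axis) in every library, by group (LN or tumor of control or MHCII-deleted mice). Points are libraries and lines are group means. The tumor libraries lie below the LN libraries for 7 of the genes, above them for Il7r, and among or close to them for Satb1 and Foxo1.

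The first comparison asked how tumor Tregs differ from LN Tregs in control mice. Of the 10 genes, 7 fell, 1 rose and 2 did not pass (edgeR quasi-likelihood test, adjusted p under 0.05). Over all 13920 genes tested, 16.1% were called lower and 22.8% higher. The median log2 fold change of the 10 genes was -1.84, beside 0.08 for all genes. The same 7 and 1 were counted when libraries were scaled to pan-T genes, where 11.6% of all genes were lower and 23.3% higher. The genes were chosen with earlier results of these libraries known, so the count is a description of them. The groups did not overlap for 9 of the 10 genes, as for 53.0% of all genes.

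Among the TCF/LEF factors, Tcf7 (ENSMUSG00000000782, chromosome 11, 52252371 to 52283014 in GRCm38) stood at 500, 568 and 549 CPM in LN and at 104, 77.7 and 98.3 in tumor of control mice. Every tumor library was far below every LN library, a log2 fold change of -2.53 ± 0.26 (SE; edgeR, adjusted p = 6.46e-05). Lef1 (ENSMUSG00000027985, chromosome 3, 131110471 to 131224356) had 446, 457 and 491 CPM in LN and 154, 142 and 149 in tumor, with little spread in either tissue. Its log2 fold change of -1.65 ± 0.09 (adjusted p = 9.95e-07) left Lef1 at 0.32 of its LN level, while Tcf7 was left at 0.173. The exons of Lef1 share 1208 bases with an antisense gene on the other strand. The library kit does not mark strand, so reads of the pair cannot be told apart, and the same holds for shorter stretches of Foxo1 (674 bases), Bach2 (537), Il6ra (242) and Satb1 (128).

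Bach2, a repressor that competes with AP-1 at effector genes (ENSMUSG00000040270, chromosome 4, 32238804 to 32586108), had 30.7, 41.2 and 43.2 CPM in LN and 14.1, 3.01 and 10.8 in tumor of control mice. The tumor libraries were all lower but differed 4.68-fold among themselves. It fell by 2.04 ± 0.54 on the log2 scale (adjusted p = 0.0151). Satb1, which folds chromatin into loops (ENSMUSG00000023927, chromosome 17, 51736187 to 51833290), had 118, 190 and 140 CPM in LN and 161, 72.9 and 116 in tumor. These libraries overlapped, and the log2 fold change of -0.36 ± 0.39 did not pass (adjusted p = 0.499), which does not show that the level was equal.

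The forkhead genes differed from each other. Foxp1 (ENSMUSG00000030067, chromosome 6, 98925338 to 99522721), which opposes FOXO1 at the Il7r locus, had 271, 296 and 261 CPM in LN and 96.3, 87.5 and 107 in tumor of control mice. The groups lay well apart, with a log2 difference of -1.51 ± 0.11 (adjusted p = 6.23e-06). Foxo1 (ENSMUSG00000044167, chromosome 3, 52268336 to 52353221) had 101, 119 and 129 CPM in LN and 91.7, 58.6 and 91.2 in tumor. All tumor libraries were below all LN libraries, by a margin that was small beside the spread shared by the 4 groups, and the log2 fold change of -0.53 ± 0.55 did not pass (adjusted p = 0.473). It passed in 4 of 18 alternatives, among them the omission of either deleted tumor library, at the same value.

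Id3 (ENSMUSG00000007872, chromosome 4, 136143497 to 136145755) had 300, 322 and 333 CPM in LN and 21.4, 22.7 and 24.1 in tumor of control mice. The tumor level was 14.0-fold lower, with a log2 difference of -3.81 ± 0.23 (adjusted p = 2.05e-06). Its relative Id2, which marks effector cells, went the other way. Its mean was 89.8 ± 12.5 CPM in LN and 672 ± 41.7 in tumor (SD, n = 3 each), which is 2.90 ± 0.14 on the log2 scale (adjusted p = 4.67e-07).

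The receptors also went apart. Il7r, the IL-7 receptor alpha chain (ENSMUSG00000003882, chromosome 15, 9505788 to 9530176), had 91.6, 85.0 and 89.0 CPM in LN and 209, 217 and 193 in tumor of control mice. It was the gene of the 10 that rose, 2.33-fold, with a log2 difference of 1.22 ± 0.15 (adjusted p = 0.000177). Il6ra, the IL-6 receptor alpha chain (ENSMUSG00000027947, chromosome 3, 89864059 to 89913196), had 163, 175 and 147 CPM in LN and 23.9, 33.3 and 34.9 in tumor. It fell with a log2 difference of -2.40 ± 0.16 (adjusted p = 3.08e-06). Il6st, the signaling chain that pairs with it, fell as well, by 1.82 on the log2 scale (adjusted p = 2.1e-06), from 494 ± 47.6 CPM to 140 ± 14.9. Il2rg, the common gamma chain that pairs with the IL-7 receptor, had 2190 ± 55.1 and 2370 ± 112 CPM and did not pass (log2 fold change 0.12, adjusted p = 0.253).

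Dapl1 (death-associated protein-like 1, ENSMUSG00000026989, chromosome 2, 59484653 to 59505020), had 9.87, 17.0 and 16.4 CPM in LN and 0.916, 0.231 and 0.426 in tumor of control mice. These levels came from 325, 629 and 490 counts in LN and from 30, 7 and 12 in tumor. The log2 fold change was -4.76 ± 0.64 (adjusted p = 0.000305), the lowest of the 10 genes. Every tumor library was far below every LN library, though the tumor values rest on few counts.

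The promoters of the 10 genes were read from RefSeq (GRCm38.p6), as the 250 bases before each annotated start, and all 10 genes had at least 1 of the 20 windows found. Exact matches on both strands were counted for CTTTGAT and CTTTGAA (TCF/LEF), GTAAACA (FOXO), TGAGTCA (BACH2 and AP-1) and CACCTG (E-box). CTTTGAT and CTTTGAA differ in their last base, and no 2 matches overlapped. Of the 20 windows, 5 held a match, in 4 genes. Over all 32851 windows, CTTTGAT was found in 3.21%, CTTTGAA in 4.46%, GTAAACA in 3.17%, TGAGTCA in 4.46% and CACCTG in 17.2%. The matches to motifs of factors encoded among the 10 genes were in Dapl1 and in the second Foxp1 window, shown here because those genes fell together with the TCF/LEF genes in tumor. The first, at chr2:59484403-59484652 on the plus strand, has GTAAACA at bases -164 to -158 from the start, in capitals. The other, at chr6:99266516-99266765 on the minus strand, has the reverse complement of CTTTGAA at bases -205 to -199, also in capitals. Of its bases, 17 lie in an annotated exon. A match of letters is not a bound site. The 3 other windows, in Satb1, Foxp1 and Il6ra, held the E-box.
Dapl1: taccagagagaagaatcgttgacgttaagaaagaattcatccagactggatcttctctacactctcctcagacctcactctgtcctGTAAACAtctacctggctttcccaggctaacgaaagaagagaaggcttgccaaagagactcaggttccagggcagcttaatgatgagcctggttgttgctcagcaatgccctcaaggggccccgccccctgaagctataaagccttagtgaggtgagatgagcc
Foxp1: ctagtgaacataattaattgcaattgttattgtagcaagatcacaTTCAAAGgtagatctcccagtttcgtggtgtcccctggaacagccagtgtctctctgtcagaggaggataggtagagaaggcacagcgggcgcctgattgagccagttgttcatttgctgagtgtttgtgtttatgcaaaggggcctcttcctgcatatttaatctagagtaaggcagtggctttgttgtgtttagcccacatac

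In deleted mice, 8 of the 10 genes were lower in tumor than in LN, 1 was higher and 1 did not pass (edgeR quasi-likelihood, with 20.1% of all genes lower and 24.3% higher). The groups did not overlap for any of the 10 genes, as for 75.6% of all genes. The median was -2.50, beside 0.07 for all genes. Scaled to pan-T genes, 7 were lower and 1 higher, where 2.41% of all genes were lower and 63.7% higher. The median of all genes moved to 1.25 under that scaling and that of the 10 genes to -1.34. The calls that both scalings shared were Lef1, Tcf7, Bach2, Foxp1, Id3, Il6ra and Dapl1 lower and Il7r higher.

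The values by library in deleted mice were as follows. Tcf7 had 660 and 674 CPM in LN and 67.7 and 153 in tumor, and Lef1 had 510 and 474 in LN and 86.2 and 99.1 in tumor. Both were far lower in tumor, with log2 fold changes of -2.59 ± 0.31 and -2.41 ± 0.11 (edgeR, adjusted p = 0.000151 and 1.25e-06). Id3 had 351 and 300 CPM in LN and 21.5 and 43.7 in tumor, a log2 difference of -3.32 ± 0.27 (adjusted p = 1.33e-05). Foxp1 had 351 and 292 CPM in LN and 95.4 and 102 in tumor, a log2 difference of -1.70 ± 0.14 (adjusted p = 1.09e-05) that shrank to -0.52 ± 0.15 per pan-T gene (adjusted p = 0.00918). The tumor libraries of Foxp1 were thus low on both scales, but by different amounts. Bach2 had 73.4 and 50.6 CPM in LN and 4.07 and 12.3 in tumor, with a log2 difference of -2.92 ± 0.69 (adjusted p = 0.00709). Il6ra had 200 and 163 CPM in LN and 16.2 and 15.2 in tumor, with -3.53 ± 0.20 (adjusted p = 2.05e-06). This was the lowest log2 value in deleted mice after that of Dapl1, which had 18.9 and 9.10 CPM in LN and 0.101 and 0.458 in tumor (3 and 16 counts) and stood at -5.60 ± 0.82 (adjusted p = 0.000427).

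Il7r had 98.8 and 92.2 CPM in LN and 174 and 111 in tumor of deleted mice. Both tumor libraries were higher, but library 2 only narrowly, and the log2 fold change was 0.58 ± 0.18 (adjusted p = 0.0259). Without library 1 of the deleted tumors it was 0.21 and did not pass. The call was also lost without either LN library of deleted mice, at 0.62 and 0.53, and with only the groups compared, at 0.60. Per 10000 pan-T counts Il7r had 57.0 and 54.3 in LN and 249 and 135 in tumor, a log2 difference of 1.79 ± 0.24 (adjusted p = 9.89e-05). Satb1 had 467 and 364 CPM in LN and 70.0 and 200 in tumor, a log2 difference of -1.62 ± 0.48 (adjusted p = 0.0221) that missed the threshold per pan-T gene, at -0.49. Leaving out single libraries also ended that call, at values of -1.43 and -1.79 without LN library 1 or 2 of deleted mice and -1.06 without tumor library 1, and it was lost in 6 of 18 alternatives in all. Foxo1 had 409 and 425 CPM in LN and 29.9 and 235 in tumor and did not pass, at -1.65 ± 0.68 (adjusted p = 0.0751). It passed without either deleted tumor library, at -0.83 without library 1 and -3.81 without library 2, and with limma-voom, at -2.26. Over 18 alternatives its adjusted p ran from 1.95e-05 to 0.435.

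**Figure D2:**
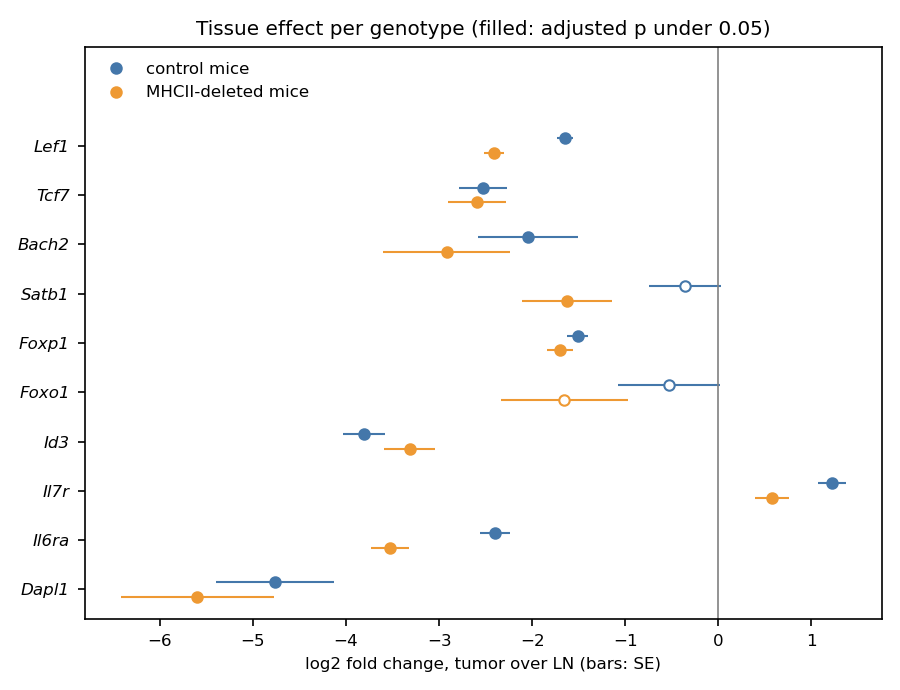
Log2 fold change of tumor over LN for each gene, in mice of either genotype. Bars are standard errors and filled points passed the edgeR test at an adjusted p under 0.05. All genes but Il7r lie left of 0, and Foxo1 in both genotypes and Satb1 in control mice did not pass.

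The next comparison asked whether the genes differed in tumor Tregs when lymphatic endothelium lacked MHC class II. Relative to all RNA, Lef1, Il7r and Il6ra fell, and none of the 10 rose. Over all genes, 13.7% were called lower and 15.0% higher. The median of the 10 genes was -0.08, beside 0.10 for all genes, and the groups did not overlap for 3 of them, as for 53.6% of all genes. Relative to pan-T genes no gene fell and 7 rose, where 0.33% of all genes were lower and 67.2% higher. The median of all genes then moved by over 1 log2 unit, to 1.22, and that of the 10 genes was 1.01. A rise on that scale was thus the common behaviour of all genes in these libraries, and it moved with the larger amount of melanoma RNA given above. The part of melanoma or other cells in it was not tested.

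Lef1 had 154, 142 and 149 CPM in control tumors and 86.2 and 99.1 in deleted tumors, with no overlap, and a log2 fold change of -0.68 ± 0.10 (edgeR, adjusted p = 0.00114). Per 10000 pan-T counts the order of the groups was the opposite, with 91.9, 86.3 and 93.2 in control and 123 and 121 in deleted tumors, a log2 difference of 0.43 ± 0.10 (adjusted p = 0.00301). Foxp3, for scale, stood at -1.09 ± 0.12 relative to all RNA and at 0.03 ± 0.13 relative to pan-T genes. The fall of Lef1 was smaller than that of the pan-T genes as a set, which is what the second scale measures.

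Il6ra had 23.9, 33.3 and 34.9 CPM in control tumors and 16.2 and 15.2 in deleted tumors. The deleted libraries were both lower, with a log2 difference of -0.97 ± 0.18 (adjusted p = 0.00351). Per 10000 pan-T counts the libraries overlapped, at 14.3, 20.2 and 21.8 against 23.2 and 18.5, and the difference of 0.15 ± 0.20 did not pass (adjusted p = 0.51). The call in CPM was also lost with limma-voom, at -0.94. Il7r had 209, 217 and 193 CPM in control and 174 and 111 in deleted tumors, with a log2 difference of -0.53 ± 0.17 (adjusted p = 0.0374). In 11 of 18 alternative analyses Il7r did not pass, and with scaling to pan-T genes it passed in the opposite direction. The 18 values ran from -0.90 to 0.61. The analyses where it did not pass include the omission of any one library except library 1 of the deleted tumors. Without library 2 of the deleted tumors the value was -0.24. Per 10000 pan-T counts Il7r had 125, 132 and 120 in control and 249 and 135 in deleted tumors, where it rose by 0.61 ± 0.21 (adjusted p = 0.0231).

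Per pan-T gene, Id3 and Foxp1 had the lowest adjusted p. Id3 had 12.8, 13.8 and 15.0 per 10000 pan-T counts in control tumors and 30.8 and 53.1 in deleted tumors, a log2 difference of 1.60 ± 0.20 (adjusted p = 7.43e-05). In CPM it had 21.4, 22.7 and 24.1 against 21.5 and 43.7, which overlapped and did not pass (0.52 ± 0.23, adjusted p = 0.116). Foxp1 had 57.4, 53.0 and 66.7 per 10000 pan-T counts against 136 and 124, a log2 difference of 1.14 ± 0.13 (adjusted p = 5.17e-05) that lay below the median of all genes on that scale. In CPM it differed by 0.03 ± 0.12 (adjusted p = 0.894).

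Tcf7, Satb1 and Foxo1 also rose per pan-T gene, with 1.32 ± 0.23, 1.28 ± 0.38 and 1.75 ± 0.55 (adjusted p = 0.000527, 0.0126 and 0.0172), and none of these passed in CPM (0.25, 0.21 and 0.72). Their deleted tumor libraries did not lie together. Foxo1 stood at 29.9 and 235 CPM in deleted tumors, below and above all 3 control tumors at 58.6 to 91.7. Tcf7, at 67.7 and 153 CPM, and Satb1, at 70.0 and 200, likewise had 1 deleted library below and 1 above their control tumors, at 77.7 to 104 and 72.9 to 161. Without library 2 of the deleted tumors Foxo1 turned to -1.43, and without library 1 Foxo1, Tcf7 and Id3 were higher in CPM, with 1.55, 0.72 and 0.94 (9.99% of all genes higher in that fit). Bach2 and Dapl1 did not pass on either scale, at -0.18 ± 0.59 and -0.88 ± 0.73 in CPM and at 0.88 ± 0.55 and 0.18 ± 0.71 per pan-T gene.

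**Figure D3:**
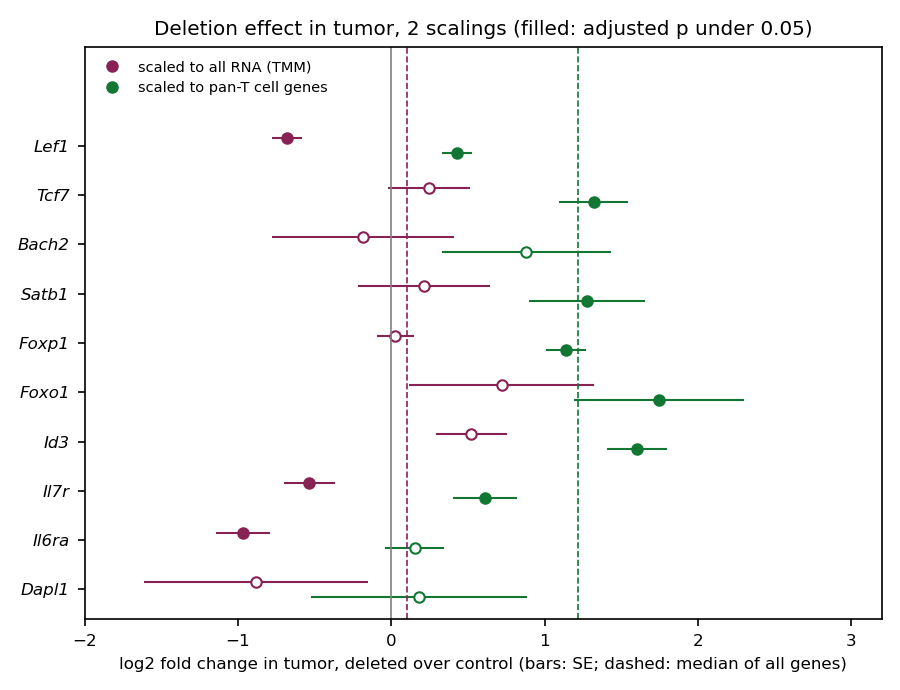
Log2 fold change of MHCII-deleted over control tumors for each gene under both scalings (all RNA by TMM, or pan-T genes). Bars are standard errors, filled points passed the edgeR test at an adjusted p under 0.05, and dashed lines are the medians of all genes, 0.10 and 1.22. Lef1 and Il7r are filled on opposite sides of 0.

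**Figure D4:**
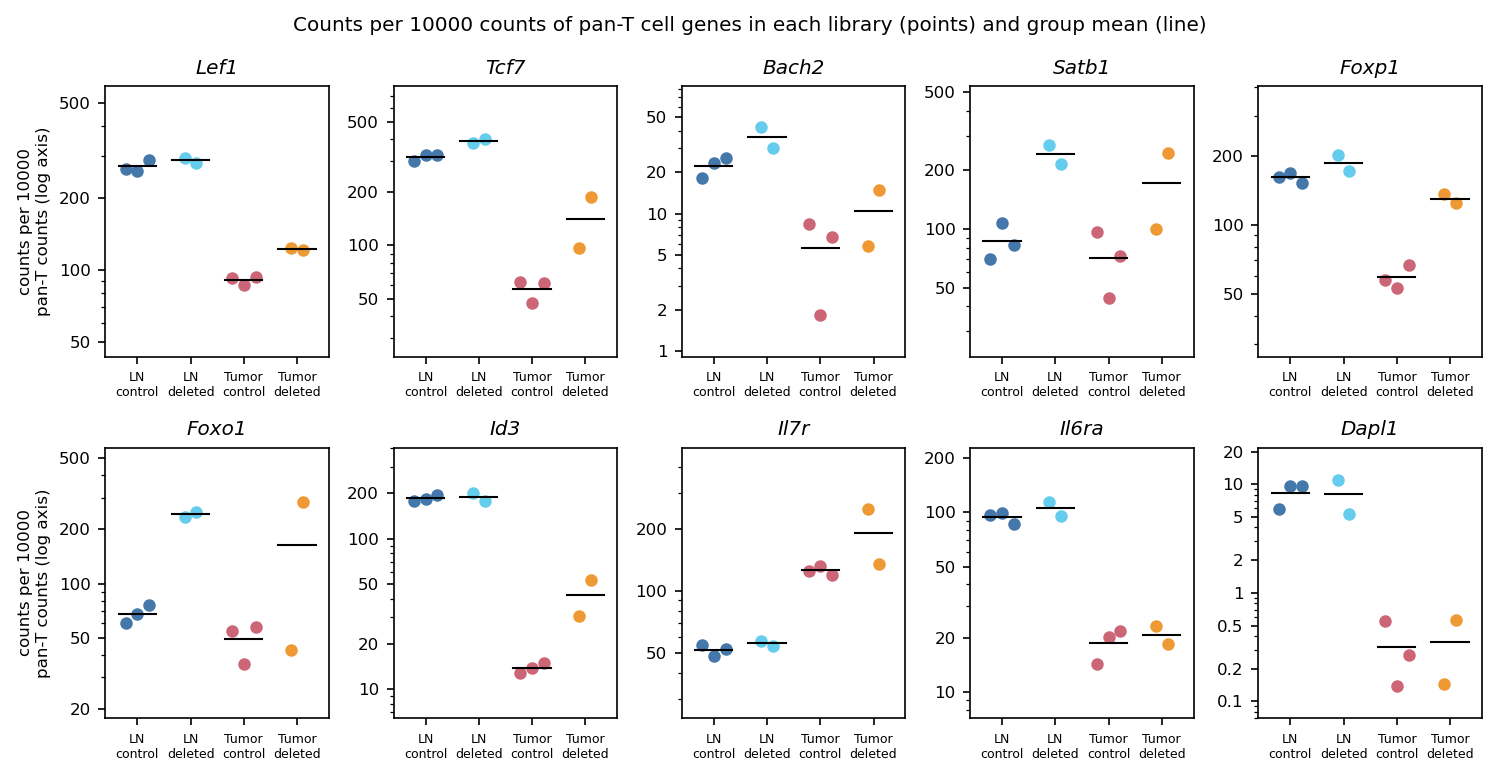
Counts of each gene per 10000 pan-T counts (log axis) in every library, by group. Points are libraries and lines are group means. In deleted tumors Lef1, Tcf7, Satb1, Foxp1, Id3 and Il7r lie above all control tumors, and Bach2, Foxo1, Il6ra and Dapl1 overlap them.

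The pair of deleted tumor libraries was unusually wide for part of the genes. Library 2 over library 1 was 7.88 for Foxo1, 4.54 for Dapl1, 3.02 for Bach2, 2.86 for Satb1, 2.26 for Tcf7 and 2.03 for Id3 (ratio of CPM). It was 1.15 for Lef1, 1.07 for Foxp1, 0.939 for Il6ra and 0.635 for Il7r. Over 9190 genes of at least 10 CPM in these libraries, 6.94% were at least 2-fold higher in library 2 and 1.64% at least 2-fold higher in library 1. Bach2 and Dapl1, with means of 8.17 and 0.279 CPM in deleted tumors, lie below that level. The ratio of Dapl1 rests on 3 and 16 counts. Control tumors spread most for Bach2 (highest over lowest 4.68), Dapl1 (3.96, from 7 to 30 counts) and Satb1 (2.21), and least for Lef1 (1.08).

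A property of the sequence moved with this spread. For each library a GC index was taken as the median deviation of 6294 genes with a GC-rich stretch (over 75% in some 100 bases of a transcript) minus that of 7546 other genes, with the 10 genes left out. The index was 0.0147 in library 1 and 0.219 in library 2 of the deleted tumors, and -0.00298 to 0.0409 in control tumors. After the group means were removed, Tcf7, Foxo1, Satb1 and Id3 varied with it, with r of 0.88, 0.87, 0.83 and 0.84 over 10 libraries, and Il7r against it with -0.83. These libraries share their group means, and library 2 of the deleted tumors weighs heavily, so r is a description. The richest stretch held 89% GC in Satb1 and Foxp1, 88% in Bach2, 83% in Foxo1, 81% in Il6ra, 78% in Lef1 and 76% in Tcf7. Under the limit of 75% were Id3 with 72%, Dapl1 with 60% and Il7r with 58%. GC content and r did not rank the genes alike: Foxp1 and Il6ra had r of 0.45 and -0.08, while Id3 and Dapl1, with no stretch over 75%, had 0.84 and 0.71.

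With the index as a covariate, added after seeing the data, the tissue effect passed for 9 genes lower and 1 higher in both genotypes. Of all genes, 6.64% were then lower and 12.2% higher in control mice, and 21.9% lower and 24.1% higher in deleted mice. Foxo1 stood at -2.84 ± 0.58 in control and -2.76 ± 0.44 in deleted mice (edgeR, adjusted p = 0.00974 and 0.000886), and Satb1 at -1.84 ± 0.40 and -2.10 ± 0.29 (adjusted p = 0.0132 and 0.000414). Over all alternatives the adjusted p of the control comparison ran from 0.00974 to 0.707 for Foxo1 and from 0.0132 to 0.864 for Satb1. In control mice the index also separates the tissues, at -0.221 to -0.149 in LN and -0.00298 to 0.0409 in tumor. Tissue and index cannot be told apart there. The control values of this fit rest on the slope within groups, where library 2 of the deleted tumors weighs heavily. The call of Il7r in tumor was lost, at -0.31, and those of Lef1 and Il6ra there held, at -0.76 and -0.95.

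**Figure D5:**
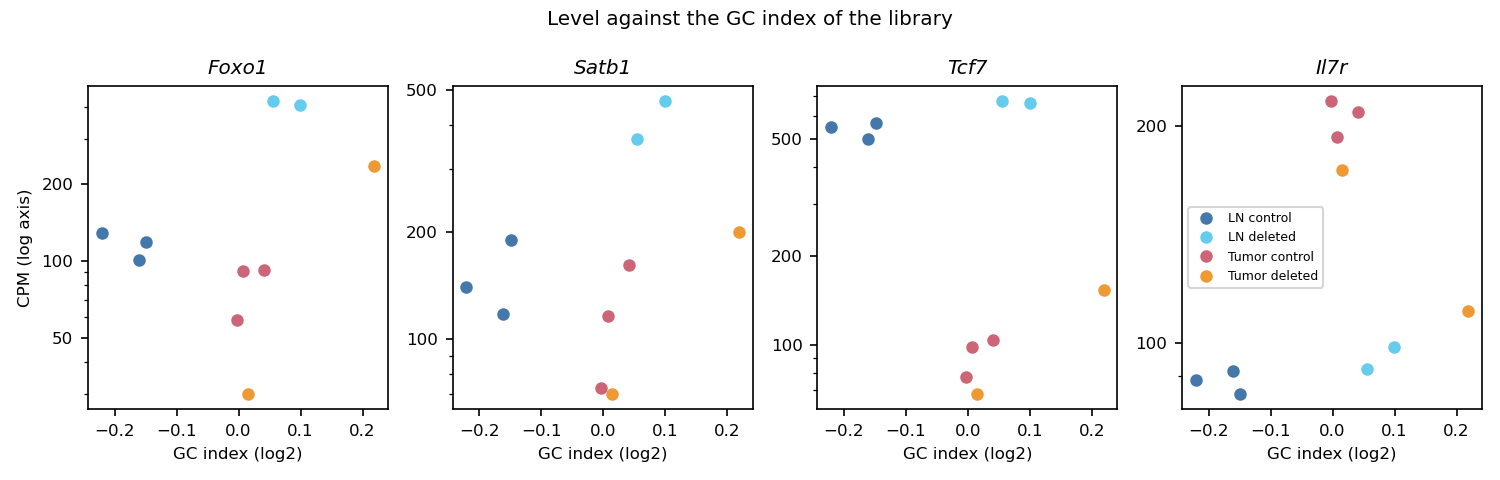
Level of Foxo1, Satb1, Tcf7 and Il7r in CPM (log axis) against the GC index of the library (log2 units), coloured by group. Points are libraries. The 3 LN libraries of control mice have the lowest index, -0.221 to -0.149, and the pair of LN libraries of deleted mice lies at 0.055 and 0.0997.

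In LN the deletion effect passed for none of the 10 genes (edgeR quasi-likelihood, adjusted p under 0.05), where 1.07% of all genes were called higher and 0.0359% lower. Before adjustment 2 of the 10 had a p under 0.05, and the share of all genes at that looser threshold was not taken. The median was 0.19, beside 0.00 for all genes. Groups did not overlap for 5 of the genes, as for 27.3% of all genes. The 2 genes were Foxo1 and Satb1. Foxo1 had 101, 119 and 129 CPM in LN of control mice and 409 and 425 in LN of deleted mice, a log2 difference of 1.84 ± 0.60 (adjusted p = 0.23). Both deleted libraries were more than 3 times as high as any control library, and the standard error was 0.11 in a fit of the LN libraries alone. Satb1 had 118, 190 and 140 CPM against 467 and 364, again with no overlap, and 1.48 ± 0.43 (adjusted p = 0.149).

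The call on these 2 genes depended on the model. Without either tumor library of deleted mice, both passed in LN at the same values (4.13% and 4.04% of all genes called higher without library 1 or 2). With only the groups compared, both also passed, at 1.85 and 1.49 (6.62% of all genes called higher). Limma-voom with quality weights called both, at 1.88 and 1.55 (5.42% of all genes higher), and DESeq2 called Satb1, at 1.43 (4.97% higher). Over all alternatives, adjusted p ran from 1.24e-05 to 0.929 for Foxo1 and from 0.00118 to 0.962 for Satb1. Once the GC index entered the fit, the values were -1.15 ± 0.71 for Foxo1 and -0.45 ± 0.50 for Satb1. The index separates the genotypes in LN, as the plot of levels against it shows, so in LN the deletion and the index cannot be told apart. Of the other genes, Lef1, Id3, Il7r, Il6ra and Dapl1 had log2 fold changes of -0.04 to 0.16 in LN, Foxp1 had 0.22, Tcf7 0.31 and Bach2 0.69.

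The interaction asked whether the deletion effect differed between tumor and LN. It passed for Lef1 (-0.76 ± 0.14, edgeR adjusted p = 0.00992) and Il6ra (-1.13 ± 0.24, adjusted p = 0.0181), both lower in tumor relative to LN, where 6.57% of all genes were lower and 4.14% higher. For Lef1 the deletion effect was 0.08 ± 0.10 in LN and -0.68 in tumor, and for Il6ra it was 0.16 ± 0.17 and -0.97. Relative to pan-T genes the values of both were 0.35 and -0.01 and did not pass. On that scale Id3 (1.57 ± 0.28, adjusted p = 0.00162), Foxp1 (0.92 ± 0.19, adjusted p = 0.00292) and Tcf7 (1.01 ± 0.32, adjusted p = 0.0269) were higher in the interaction, where 45.9% of all genes were higher and 0.144% lower. The median of all genes was 1.11 on that scale. Without library 2 of the deleted tumors 5 genes were lower in CPM, including Foxo1 (-3.27), Satb1 (-2.21) and Tcf7 (-0.77), where 9.85% of all genes were lower. Without library 1 those 3 genes did not pass, while Id3 was higher (0.91) and Il7r lower (-1.01). The tissue effects and the deletion effects draw on the same 4 groups of libraries, so their values stand side by side and are not independent of each other.

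Partners and targets of the 10 genes were counted from lists, in control tumors over control LN first. Of 15 cofactors of TCF/LEF and Wnt signaling, 2 rose and 3 fell (median -0.25), which is near or below the 22.8% higher and 16.1% lower of all genes. The coactivator Bcl9 fell by 1.91 on the log2 scale and its relative Bcl9l by 0.85, while Ctnnb1, the gene of beta-catenin, rose by 0.70 and Tcf7l2, another HMG factor, by 2.22. Of 12 tested genes of forkhead family, FOXO1 control and FOXO1 targets, 2 rose and 3 fell (median 0.09), also close to those shares. Sgk1, a kinase that inhibits FOXO1, rose by 2.45, and S1pr1 and Pik3ip1 fell by 0.68 and 2.53. Of 5 E protein and Id genes tested, 3 rose, Id2, Id1 (3.94) and the E protein gene Tcf4 (1.15). Id1 had 0.157 ± 0.114 CPM in LN and 2.44 ± 0.542 in tumor. With the GC index in the fit, the calls of Tcf4 (0.25), Id1 (2.98) and Tcf7l2 (2.59) were lost. Between the same groups the summed stromal and endothelial markers went from 207 ± 20.9 to 2530 ± 1870 CPM and the melanoma genes from 14.0 ± 4.79 to 5240 ± 1910, and their part in these low-level genes was not tested.

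Of 14 partners of the IL-7 and IL-6 receptors, 4 rose and 3 fell (median 0.24). These counts are near the shares of all genes, 22.8% higher and 16.1% lower, which also stand beside the next 2 lists. Bcl2, a survival gene downstream of IL-7, fell by 2.31 in control tumors, while the signal transducers Stat3 and Jak3 rose by 0.86 and 0.53. The call of Jak3 was lost with the GC index in the fit, at 0.55. Of 15 transcription factor genes of effector Tregs, 12 rose and none fell (median 2.32), among them Bhlhe40 (4.36), Rora (2.32) and Runx2 (3.39). Prdm1, which encodes BLIMP1 and was looked up for its role, did not pass at 0.44 ± 0.22 (edgeR, adjusted p = 0.132). Of 19 other genes of the naive program, 13 fell and 1 rose (median -1.69), with Evl at -2.26, Nsg2 at -3.27 and Treml2 at -3.35. The gene that rose, looked up after the values had been seen, was Ccr7, the receptor for homing to LN, at 675 ± 63.7 CPM in LN and 1190 ± 338 in tumor (0.82 ± 0.21, adjusted p = 0.0112). Its call was lost with the GC index in the fit, at 0.37. The lists overlap: Id2, Ccr7, S1pr1 and Klf2, for example, each stand in more than 1 of them.

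In deleted mice the tissue effect gave 17 of the 19 naive genes lower and none higher, and 9 effector factors higher and 4 lower. Of the Wnt cofactors 3 were higher and 5 lower, of the forkhead list 2 and 5, of the E protein and Id genes 4 and 1, and of the receptor partners none and 10. Of all genes, 20.1% were lower and 24.3% higher. All 22 tested pan-T genes were lower as well (median -1.39). Of the 7 Treg identity genes, 5 were lower and 2 higher. Relative to pan-T genes, where 63.7% of all genes were higher, the naive genes had 11 lower and 2 higher and the effector factors 14 higher and none lower. The other counts moved with that scaling, to 8 higher and 1 lower for the Wnt cofactors, 6 and 2 for the forkhead list, 5 and none for the E protein and Id genes, and 7 and 2 for the receptor partners.

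Relative to all RNA, 10 of the 15 effector factors were lower in deleted than in control tumors and 1 was higher. Of all genes, 13.7% were lower and 15.0% higher. Batf stood at -1.34, Maf at -1.53 and Irf4 at -1.36. The effector factors had a median of -1.07. Of 22 tested pan-T genes 21 were lower as well (median -1.11), as were all 7 Treg identity genes (median -1.18). Of the 14 receptor partners, 9 were lower and 1 higher, among them Il2rg (-1.13), Jak3 (-0.88) and the kinase Tyk2 (-0.82). Of the 19 naive genes 7 were lower and 1 higher, with Runx1 at -0.89, Ets1 at -0.54 and Slamf6 at -0.74. Relative to pan-T genes these counts turned: 3 effector factors were higher and 1 (Maf, -0.41) lower, 8 receptor partners and 14 naive genes were higher and none lower. With 67.2% of all genes higher on that scale, the counts of the receptor partners and naive genes are near the background. Of the Wnt cofactors 2 rose and 2 fell, with Ctnnb1 at 1.30, Tcf7l1 at 2.01 and Pygo2 at -0.49, and 13 rose per pan-T gene. In the forkhead list S1pr1 and Sgk1 were lower, by -0.78 and -0.86, and Akt1 higher at 2.71, with 9 higher per pan-T gene. Akt1 stood at 49.8 ± 10.9 CPM in control and 326 ± 345 in deleted tumors, so its deleted libraries lay far apart. Tcf12 and Tcf4 were higher, at 1.41 and 1.78, and Id2 lower at -1.08, with 3 of that list higher per pan-T gene. Melanoma RNA moved with each of these counts, and its part in them was not tested. With the GC index in the fit, the calls of Tcf7l1 (1.60), Pygo2 (-0.38), Akt1 (1.03) and Tcf4 (1.20) relative to all RNA were lost. Those of the other list genes named here held.

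In LN the deletion effect called 2 Wnt cofactors, 1 gene of the forkhead list and 1 naive gene higher and no gene of these 6 lists lower. Of all genes, 1.07% were called higher there and 0.0359% lower. In the interaction, 7 effector factors, 6 receptor partners, 3 naive genes and 2 Wnt cofactors were lower, and 1 Wnt cofactor and 1 E protein or Id gene higher. Of all genes, 6.57% were lower and 4.14% higher. Among the markers, 21 of 22 tested pan-T genes and all 7 Treg identity genes were lower as well. Relative to pan-T genes none of the 6 lists had a lower gene. On that scale 4 effector factors, 5 receptor partners, 7 naive genes, 5 Wnt cofactors, 6 genes of the forkhead list and 3 E protein or Id genes were higher, where 45.9% of all genes were higher.

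Over all 10 libraries, log2 levels of the 10 genes rose and fell together, mostly with tissue. Pearson's r was 0.99 for Tcf7 with Id3 and for Lef1 with Il6ra, 0.98 for Tcf7 with Foxp1 and 0.95 for Foxo1 with Satb1, but 0.58 for Foxo1 with Lef1. Il7r ran against each of the other 9 genes, at -0.93 to -0.60. The libraries fall into 2 clusters by tissue, so these values describe that contrast. With the group means removed, Lef1 with Il6ra went to -0.31 and Tcf7 with Foxp1 to 0.38, while Tcf7 and Foxo1 stayed together (0.99) and Il7r ran against Foxo1 (-0.97) and Tcf7 (-0.95). The deleted tumor pair, 7.88-fold apart for Foxo1, is part of that pattern.

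Among 8714 other genes of at least 10 CPM, those whose log2 levels were most like a given gene over the 10 libraries were found by r. For Lef1 they were Smc4 (0.996), Mtr (0.996) and St3gal1 (0.995), and for Tcf7 Icam2 (0.994), Ephx1 (0.988) and Sh3bp5 (0.987). For Foxo1 they were Klf13 (0.988), Dgkz (0.982) and Prkcb (0.98). For Il7r they were Gna13, Krt83 and Uap1 (0.962, 0.96 and 0.96). For Il6ra they were Capn3, Art2b and Zbtb7b (0.994 each).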

How the data were processed

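RNA was measured in 10 libraries of sorted Tregs, in 4 groups taken from the labels. Per the labels' protocols, cDNA was amplified by the SMARTer Ultra Low method, tagged with Nextera XT and read from one end over 50 bases. The submitters' processing notes list STAR 2.4 and featureCounts 1.4.6, together with CASAVA 1.8.2, and the build GRCm38. The annotation release and the strand setting are not given in the sources used here. The deposited values are raw counts for each Ensembl gene, whole numbers without normalization, and library totals ran from 28539329 to 35736175. All 21556 identifiers matched GENCODE mouse release 21, and 4630 rows were 0 in every library.

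In R 4.3.3, edgeR 4.0.16 was run on the counts of all 10 libraries with filterByExpr (minimum count 10), which left 13920 genes and all 10 members of the set, TMM normalization and a robust quasi-likelihood fit of 4 group means. The count filter and the shared spread follow from groups of 2. P-values were adjusted by Benjamini-Hochberg over all genes tested and called under 0.05, and standard errors were the log2 fold change divided by the square root of F. The fit was tested on simulated data. CPM are TMM-scaled, RPKM use the union of exons, and correlations use log2 CPM with a prior count of 2. The genes, the lists and the rule for named genes (all 10 genes, up to 4 called list genes by p in control tissue, up to 3 in the tumor deletion effect, 3 most alike genes for 5 of the 10, with Prdm1, Ccr7 and Il2rg added for control tissue) were chosen with earlier results of these data known.

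Alternatives were RLE size factors, no filter, scaling to pan-T genes, a replicate block, DESeq2 1.42.0, limma-voom (limma 3.58.1) with quality weights, only the groups compared, and the omission of each library. The GC index as a covariate was added after seeing the data. Residual correlations of same-numbered libraries were -0.148 to 0.046. In groups this small they cannot show whether such libraries share a mouse, which the labels do not say. No 2 libraries of a group were alike within sampling noise. Marker lists were summed per library. Myeloid genes summed to 45.3 to 105 CPM in LN and 140 to 474 in tumor, and B and plasma cell genes to 26.0 to 60.7 in all. CD8 T and NK cell genes summed to 44.4 to 99.3 in all, and stromal and endothelial genes to 183 to 222 in LN and 398 to 4330 in tumor. Treg identity genes summed to 3180 to 3950 in LN, 7570 to 8290 in control tumors, and 3330 and 3710 in deleted tumors. Ncr1 and S100a9 were at 0 in every LN library. Protein sequences were not used here. The values of 1 gene that the rule names are not reported here.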

Additional observations from a re-analysis of the deposited data

Results flagged for a closer look

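The deletion effect of Lef1 differed between the tissues. It was lower in tumor than in LN by -0.76 on the log2 scale in the interaction test (edgeR quasi-likelihood, adjusted p = 0.00992), with both deleted tumor libraries below all 3 control tumors and no such separation in LN. Scaled to pan-T genes the value was 0.35 and did not pass, and it did not pass with the GC index as a covariate, at -0.65. Adjusted p over 17 alternatives was 6.66e-05 to 0.0704.

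The deletion effect of Il6ra differed in the same way, by -1.13 (adjusted p = 0.0181). Its value was -0.01 scaled to pan-T genes. The call was also lost with limma-voom, with the GC index as a covariate and without LN library 1 of deleted mice, at -1.10, -1.16 and -0.97. Adjusted p over 17 alternatives was 0.00129 to 1.0. In both cases Cd4 and Foxp3 differed as well, by -1.0 and -0.94, and melanoma genes summed to 15000 and 18600 CPM in deleted tumors against 3740 to 7390 in control tumors. The part of melanoma RNA in either difference was not tested.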

How the results depend on the processing

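The 7 lower genes and the higher Il7r of the tissue effect in control mice kept their call under every alternative run. Scaled to pan-T genes, 0 genes were lower and 7 higher in the tumor deletion effect and 0 lower and 3 higher in the interaction, with 6 values that changed sign and passed the test on at least one of the scales: Lef1 0.43, Il7r 0.61 and Il6ra 0.15 in tumor, and Lef1 0.35, Tcf7 1.01 and Foxp1 0.92 in the interaction. Bach2 and Dapl1 in both comparisons and Il7r in the interaction also changed sign but passed on neither scale. The scaling itself is set by T cell genes that are lower in deleted tumors. The number of higher genes in the LN deletion effect was 1 with DESeq2, 2 with limma-voom and 2 with only the groups compared. The number of lower genes in the interaction was 1 with limma-voom and 1 with the GC index. With limma-voom it was Lef1. With the GC index it was Il7r, at -1.07, and the calls of Lef1 and Il6ra were both lost. With only the groups compared, 0 genes were higher in tumor of deleted mice. The cause of these was not tested. Omitting 1 library gave 0 to 1 higher in the tissue effect of deleted mice, 0 to 3 higher in the tumor deletion effect, 0 to 2 higher in the LN deletion effect, and 1 to 5 lower and 0 to 1 higher in the interaction. Where an omission leaves a group of 1, that library is assumed to vary like the other groups. Foxo1 in the tumor deletion effect ran from -1.43 without deleted tumor library 2 to 1.55 without library 1. The replicate block left all 50 single results on their side of the threshold, with Bach2 at -2.08 in control tissue (adjusted p = 0.0388). Same-numbered libraries had residual correlations of -0.148 to 0.046 over 13 pairs. RLE size factors did the same.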
